A study of Mus musculus with 15 samples.

Results

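Glucose handling in the mouse aorta was followed through 37 genes of glucose transport, glycolysis, lactate and pyruvate metabolism, the pentose phosphate pathway and glycogen, together with the glucose-responsive gene Txnip. The genes were listed by name, and each was represented by 1 probe set, the brightest on average among those annotated to that gene alone. Of the 37 genes, 34 were measured in this way, out of 18194 genes on the arrays. Gpi1, Eno1 and G6pdx were not analysed here. The oxidative branch of the pentose phosphate pathway is therefore described from Pgd onward.

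Glucose enters cells through transporters of the GLUT family and is trapped by hexokinases. Glycolysis turns it into pyruvate, which is either reduced to lactate or handed to the mitochondria by the pyruvate dehydrogenase complex, which pyruvate dehydrogenase kinases switch off. Side routes store glucose as glycogen or send it into the pentose phosphate pathway, the source of NADPH for lipid synthesis and antioxidant defence. Vascular smooth muscle is known for making lactate even with oxygen present, and the fat around the aorta takes up glucose through the insulin-dependent transporter GLUT4.

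RNA came from whole aortas, root to bifurcation, of male C57BL/6 mice aged 9 weeks, with 1 array per mouse. All mice lacked apolipoprotein E, a lipid carrier whose loss leads to atherosclerosis, so that every group carried this defect. The groups were 4 diabetic Apoe/RAGE null, 3 non-diabetic Apoe/RAGE null, 4 diabetic Apoe null and 4 non-diabetic Apoe null aortas. In the Apoe/RAGE null mice the gene Ager was deleted too, which encodes RAGE, a receptor that binds advanced glycation end products. Streptozotocin, a beta cell toxin that removes insulin, was injected at 65 mg/kg on 5 consecutive days from 6 weeks of age to make mice diabetic, while the non-diabetic mice received citrate buffer. The non-diabetic Apoe/RAGE null group had also been planned with 4 mice, but 1 gave no labelled RNA. The Apoe null animals were bought and the Apoe/RAGE null animals were bred in a laboratory colony, so genotype and colony cannot be told apart.

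All levels are the authors' RMA values on the log2 scale, and differences between groups are log2 fold changes from limma with their standard errors. The medians of the 15 arrays lay between 4.36 and 4.43. The number of mice limits the precision. Each p-value sets a group difference against the spread among mice labelled alike, as limma estimates that spread. Ager did not check the genotype: 1 of its probe sets read 3.08 to 3.66 on all arrays, and the other read higher in the groups labelled RAGE null (4.86 and 4.97 on average with and without diabetes) than in the diabetic and non-diabetic Apoe null groups (4.42 and 4.60). On that probe set diabetic Apoe/RAGE null replicates 9 and 10 read 4.63 and 4.48, within the 4.17 to 4.69 of the Apoe null aortas. Replicates 11 and 12 (5.36 and 4.95) and the non-diabetic Apoe/RAGE null aortas (4.89 to 5.09) lay above that range. The sources used here do not say which part of Ager was removed. Another gene, Decr2, was chosen because of earlier results on these arrays. Its level was 7.40 and 7.56 in diabetic Apoe/RAGE null replicates 11 and 12 and 6.84 to 6.98 in the non-diabetic Apoe/RAGE null aortas. It read only 5.19 and 5.10 in diabetic Apoe/RAGE null replicates 9 and 10, below the 5.32 to 6.01 of the Apoe null aortas. Counts and medians that use the diabetic Apoe/RAGE null group are therefore also given without replicates 9 and 10, as are the values of the genes that lead these results.

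Markers showed an aorta with attached tissue. The smooth muscle genes Acta2 (13.19 to 13.45) and Tagln (12.70 to 13.20) were high on every array, but so were Adipoq (11.42 to 12.35), a hormone of fat cells, and Ucp1 (10.48 to 12.31), the uncoupling protein of brown fat. Marker lists were summarised per array as scores, the mean log2 level of a list's genes after each gene was centred on its mean over all arrays. The score of 8 white adipocyte markers ranged from -0.34 to 0.43 in diabetic Apoe/RAGE null aortas, from -0.05 to 0.48 in non-diabetic Apoe/RAGE null aortas, from -0.63 to 0.02 in diabetic Apoe null aortas and from 0.02 to 0.25 in non-diabetic Apoe null aortas. The score of 14 skeletal muscle markers lay between 0.89 and 2.96 in diabetic Apoe/RAGE null aortas, against -2.12 to -1.34 in non-diabetic ones, and between -1.20 and 1.63 in diabetic Apoe null aortas, against -1.94 to 1.22 in non-diabetic ones. In such whole tissue, fewer cells of a type and less RNA per cell cannot be told apart.

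Promoter letters are shown for Txnip, whose transcription is known to follow glucose through paired carbohydrate response elements. They are also shown for Ldha, Pdk2 and Pcx, 3 of the members that carry an E-box. These 3 reached an unadjusted p under 0.05 (limma) for diabetes in Apoe null and for RAGE deletion in diabetic aorta. The E-box members Pfkm, Pfkfb3 and Slc16a1 reached it in neither and are not shown. An E-box holds letters bound by several helix-loop-helix factors such as MYC and USF. The sequences are the 250 bases before a transcription start in RefSeq (GRCm38.p6), 5′ to 3′ on the gene's strand, with the motif in capitals. Their positions are chr3:96557707-96557956, plus strand, for Txnip, chr7:46845554-46845803, plus strand, for Ldha, chr11:95041372-95041621, minus strand, for Pdk2, and chr19:4510222-4510471, plus strand, for Pcx. For the last 3 genes the window belongs to 1 of 2 starts listed.
Txnip: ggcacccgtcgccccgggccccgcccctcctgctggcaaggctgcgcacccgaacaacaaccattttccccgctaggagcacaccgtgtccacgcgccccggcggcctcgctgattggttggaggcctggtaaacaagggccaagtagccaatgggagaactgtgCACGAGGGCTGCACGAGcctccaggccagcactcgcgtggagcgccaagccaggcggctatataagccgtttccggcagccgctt
Ldha: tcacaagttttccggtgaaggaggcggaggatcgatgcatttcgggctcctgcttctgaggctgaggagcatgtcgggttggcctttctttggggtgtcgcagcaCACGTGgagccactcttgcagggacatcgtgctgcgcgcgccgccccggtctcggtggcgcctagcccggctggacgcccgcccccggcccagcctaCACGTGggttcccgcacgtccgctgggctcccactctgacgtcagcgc
Pdk2: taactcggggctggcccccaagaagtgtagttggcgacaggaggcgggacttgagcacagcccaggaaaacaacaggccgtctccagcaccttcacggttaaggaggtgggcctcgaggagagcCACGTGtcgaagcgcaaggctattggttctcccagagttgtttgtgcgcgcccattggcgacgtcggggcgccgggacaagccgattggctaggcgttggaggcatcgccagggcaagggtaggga
Pcx: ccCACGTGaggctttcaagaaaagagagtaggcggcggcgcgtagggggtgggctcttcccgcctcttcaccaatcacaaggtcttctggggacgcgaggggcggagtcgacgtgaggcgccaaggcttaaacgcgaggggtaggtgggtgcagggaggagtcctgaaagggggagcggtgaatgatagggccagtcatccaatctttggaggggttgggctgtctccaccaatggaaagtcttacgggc

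The pair searched in Txnip was CACGNG, 5 free bases and CACGNG, on both strands. Txnip holds it as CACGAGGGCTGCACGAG, 85 bases before the start, and 14 of 27025 genes with a promoter in the table (0.0518%) hold it within this window. The E-box CACGTG was present in 6 of the 32 measured members with a promoter in the table (18.8%), namely Pfkm, Pfkfb3, Ldha, Slc16a1, Pdk2 and Pcx, against 6.86% of all genes. The shorter core ACGTG, the letters bound by hypoxia-inducible factors, which every CACGTG also contains, was present in 15 of the 32 (46.9%), against 18.5% of all genes. A match describes the letters only and does not show that a factor binds there.

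The first comparison asked how diabetes bears on the Apoe null aorta. Most genes of glucose metabolism read lower in the diabetic aortas: 29 of the 34 measured members had fold changes below 0, against 50.2% of all genes, and their median log2 fold change was -0.45, against -0.00091 over all genes. The lower values ran through pyruvate metabolism (8 of 8 members below 0, median -0.79), the pentose phosphate pathway (3 of 3, median -0.80), glycolysis from phosphofructokinase to pyruvate kinase (9 of 11, median -0.27) and lactate metabolism (3 of 4, median -0.49). Slc2a1, the basal glucose transporter GLUT1, stood out on the higher side. With limma, 0 members passed an adjusted p of 0.05 (0% of all genes passed in either direction). At an unadjusted p under 0.05, 21 members were lower, against 5.95% of all genes, and 1 was higher, against 7.26% of all genes. The values of the 2 groups did not overlap for 11 lower members, against 3.11% of all genes, and for 1 higher member, against 4.52% of all genes. The submitters' own threshold, B above 0, took 1 member, Tkt, against 0.236% of all genes.

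**Figure D1:**
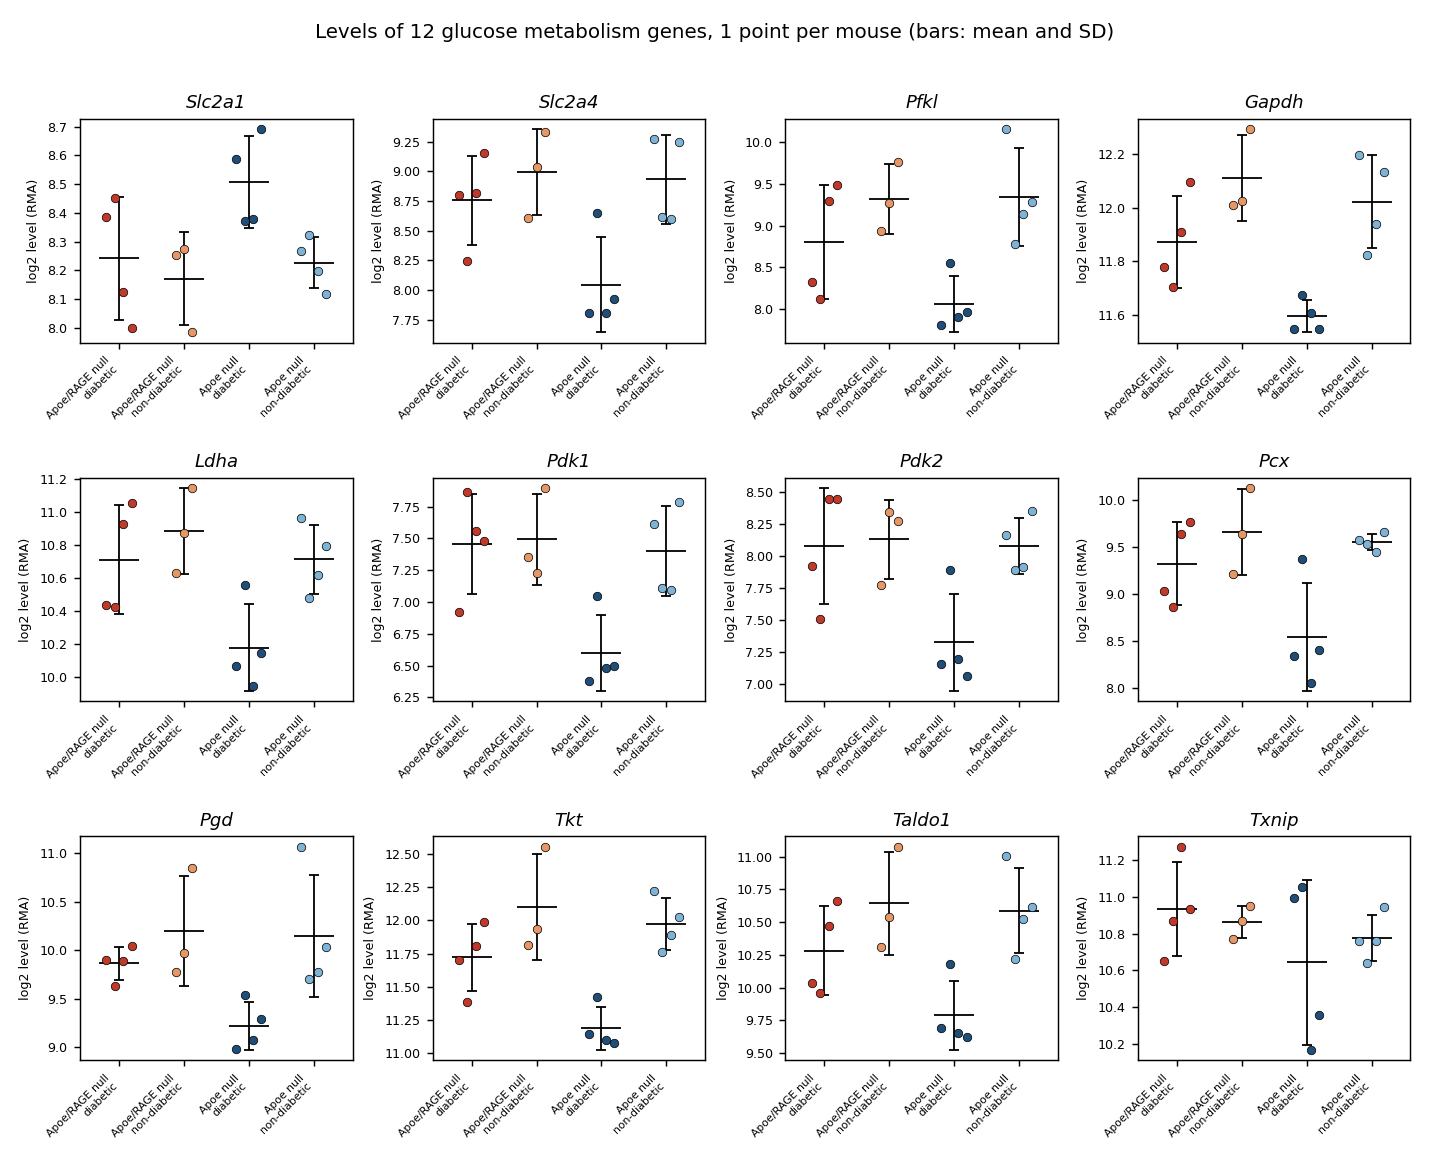
Log2 levels (RMA) of 12 glucose metabolism genes on the vertical axes, 1 point per mouse, in the 4 groups named under each panel, with bars for the mean and SD. The diabetic Apoe null aortas lie below all non-diabetic Apoe null aortas for Pfkl, Gapdh, Pdk1, Pdk2, Pcx, Pgd, Tkt and Taldo1 and above all of them for Slc2a1.

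Among the transporters, Slc2a1 read 8.59, 8.37, 8.38 and 8.69 in the diabetic Apoe null aortas, against 8.27, 8.32, 8.20 and 8.12 in the non-diabetic ones. Every diabetic value lay above every non-diabetic one. The fold change was 0.28 ± 0.11 (SE; limma adjusted p = 0.417), positive in all 3 of its probe sets. Slc2a4, which encodes GLUT4, the transporter that insulin brings to the surface of fat and muscle cells, showed the opposite picture. It read 7.81, 8.65, 7.80 and 7.93 in diabetic aortas, against 9.27, 8.61, 8.60 and 9.24 in non-diabetic aortas. Diabetic replicate 2 lay among the non-diabetic values and the other 3 lay well below them, with a fold change of -0.89 ± 0.24 (SE; limma adjusted p = 0.309).

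Hk2, the insulin-responsive hexokinase, read 8.85, 9.22, 8.52 and 8.91 in diabetic aortas, against 9.61, 9.06, 9.16 and 9.49 in non-diabetic aortas, with overlap at diabetic replicate 2 (fold change -0.45 ± 0.21, SE; limma adjusted p = 0.466). Its sign turned with adipocyte scores in the fit (0.049, and 0.036 with the skeletal muscle score added). Hk1, the hexokinase found in most cells, had a fold change of -0.13, with a 95% interval from -0.41 to 0.15. The transporter gene Slc2a3 (GLUT3) was at 0.61 ± 0.40 (SE), and at -0.40 with both tissue scores in the fit.

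In glycolysis the phosphofructokinase isoforms stood apart from each other. Pfkl, the liver-type isoform, read 7.80, 8.55, 7.90 and 7.96 in diabetic aortas, against 10.16, 8.77, 9.14 and 9.29 in non-diabetic aortas. The groups did not overlap, and the fold change of -1.29 ± 0.33 (SE; limma adjusted p = 0.293) was the most negative among the members. Of the 3 Pfkl probe sets 1 ran the other way, at 0.056. That probe set was dim, with a mean of 3.39 over all arrays, below the array medians. Pfkm and Pfkp, the muscle-type and platelet-type isoforms, had fold changes of -0.15 (95% interval -0.55 to 0.25) and 0.047 (-0.18 to 0.28). Pfkfb3, which makes the activator of phosphofructokinase, read 8.17, 8.46, 7.67 and 8.28 in diabetic aortas, against 8.48, 8.17, 8.14 and 8.37 in non-diabetic aortas. The groups overlapped widely (fold change -0.15, 95% interval -0.56 to 0.27).

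The later steps of glycolysis differed by smaller amounts. Gapdh, the glyceraldehyde phosphate dehydrogenase often used as a reference gene, read 11.55, 11.68, 11.61 and 11.55 in diabetic aortas, against 12.20, 11.82, 11.94 and 12.13 in non-diabetic aortas. All diabetic values were lower, with a fold change of -0.43 ± 0.11 (SE; limma adjusted p = 0.293) and the same sign in all 3 probe sets. The level at the 3′ end of Gapdh exceeded that at its 5′ end by 0.52 to 1.40 in diabetic and by 0.46 to 0.88 in non-diabetic aortas. The same gap for Actb averaged 0.85 in diabetic and 1.09 in non-diabetic aortas, and the part of RNA quality in the result was not tested.

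Tpi1, triose phosphate isomerase, read 9.80, 9.98, 9.91 and 9.93 in diabetic aortas, against 10.34, 10.00, 10.07 and 10.29 in non-diabetic aortas. The groups were separated by a small margin, with a fold change of -0.27 ± 0.12 (SE; limma adjusted p = 0.451). Pkm, the pyruvate kinase of most tissues, read 10.16, 10.14, 10.32 and 9.60 in diabetic aortas, against 10.89, 10.46, 10.57 and 10.72 in non-diabetic aortas. Its groups did not overlap either, with a fold change of -0.61 ± 0.17 (SE; limma adjusted p = 0.317). Among the other steps, the aldolase Aldoa (-0.41, 5 of 5 probe sets below 0), the phosphoglycerate kinase Pgk1 (-0.44) and the mutase Pgam1 (-0.27), overlapped between groups.

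Lactate and pyruvate genes followed. Ldha, the lactate dehydrogenase subunit that favours lactate formation, read 10.06, 10.55, 9.94 and 10.15 in diabetic aortas, against 10.97, 10.48, 10.62 and 10.79 in non-diabetic aortas. Only diabetic replicate 2 overlapped the non-diabetic values (fold change -0.54 ± 0.18, SE; limma adjusted p = 0.353). Ldhb, the subunit that favours lactate use, was at -0.44 ± 0.20 (SE). The lactate exporters of the monocarboxylate family differed, with Slc16a1 at -0.64 ± 0.36 (SE) and Slc16a3 at 0.15 ± 0.14 (SE), and neither reached an unadjusted p under 0.05.

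The 3 members that encode subunits of the pyruvate dehydrogenase complex, Pdha1 (-0.61), Pdhb (-0.92) and Dlat (-0.86), read lower in diabetic Apoe null aortas, as did Pdhx (-0.72) and Dld (-0.75) of the wider list described at the end. So did the kinases Pdk1 and Pdk2, which switch the complex off. A further kinase gene of the wider list, Pdk3, ran the other way, at 6.92, 6.19, 6.63 and 6.50 in diabetic aortas, against 5.80, 6.37, 6.28 and 5.89 in non-diabetic aortas (0.47 ± 0.18, SE; limma adjusted p = 0.397), with overlap at diabetic replicate 2. Pdhb read 9.95, 10.54, 9.67 and 9.83 in diabetic aortas, against 11.02, 10.56, 10.89 and 11.20 in non-diabetic aortas, without overlap (fold change -0.92 ± 0.25, SE; limma adjusted p = 0.308). Pdk1 read 6.38, 7.04, 6.48 and 6.49 in diabetic aortas, against 7.61, 7.11, 7.10 and 7.79 in non-diabetic aortas. Its groups did not overlap either (-0.80 ± 0.22, SE; limma adjusted p = 0.315), with 3 of 4 probe sets below 0 and the other dim, at a mean of 2.865. Pdk2 gave the same arrangement, with diabetic replicate 2 (7.89) almost level with the lowest non-diabetic aorta (7.89) and the other 3 diabetic aortas between 7.06 and 7.19. Its fold change was -0.76 ± 0.23 (SE; limma adjusted p = 0.338).

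Pdk4, the kinase induced by fasting and fatty acids, was more variable. It read 10.43, 11.27, 9.80 and 10.86 in diabetic aortas, against 11.29, 10.53, 10.90 and 11.41 in non-diabetic aortas, and the groups overlapped (-0.44, 95% interval -1.04 to 0.16). Pcx, pyruvate carboxylase, which supplies oxaloacetate for lipid and glucose synthesis, read 8.34, 9.37, 8.05 and 8.40 in diabetic aortas, against 9.57, 9.53, 9.44 and 9.65 in non-diabetic aortas. The non-diabetic values were close together and above all diabetic ones, with a fold change of -1.01 ± 0.27 (SE; limma adjusted p = 0.308). Pck1, the cytosolic phosphoenolpyruvate carboxykinase, which fat cells use to make glycerol, was at -0.79 ± 0.27 (SE), with 2 of 3 probe sets below 0. The remaining Pck1 probe set was dim, with a mean of 2.08 over all arrays.

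The 3 pentose phosphate members Tkt, Taldo1 and Pgd read lower in every diabetic Apoe null aorta than in any non-diabetic one. Other genes of the pathway, from the wider list, overlapped between the groups, with Rpe at -0.23, H6pd at -0.39, Pgls at -0.040 and Rpia at 0.12. Tkt, transketolase of the non-oxidative branch, read 11.15, 11.43, 11.10 and 11.08 in diabetic aortas, against 12.22, 11.76, 11.89 and 12.02 in non-diabetic aortas. The fold change was -0.79 ± 0.16 (SE), 0.579 of the non-diabetic level, with the smallest adjusted p among the members (limma, 0.260). Taldo1, transaldolase of the same branch, read 9.69, 10.18, 9.65 and 9.62 in diabetic aortas, against 11.001, 10.22, 10.52 and 10.61 in non-diabetic aortas, which left a narrow gap at diabetic replicate 2 (-0.80 ± 0.21, SE; limma adjusted p = 0.294). Pgd, which makes NADPH in the oxidative branch, read 8.98, 9.53, 9.07 and 9.29 in diabetic aortas, against 11.07, 9.70, 9.78 and 10.03 in non-diabetic aortas. Non-diabetic replicate 5 was far above its group, and the fold change was -0.93 ± 0.28 (SE; limma adjusted p = 0.338).

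Among the glycogen genes, the synthase Gys1 was at -0.73 ± 0.20 (SE) and the brain-type phosphorylase Pygb at -0.075 (95% interval -0.36 to 0.21). Txnip, an inhibitor of thioredoxin and of glucose uptake, is a gene that glucose raises in many cell types. It read 10.99, 11.05, 10.17 and 10.36 in diabetic aortas, against 10.76, 10.64, 10.76 and 10.95 in non-diabetic aortas. Diabetic replicates 1 and 2 lay above and replicates 3 and 4 below all non-diabetic values, so that the mean difference was -0.13 with a 95% interval from -0.52 to 0.25.

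**Figure D2:**
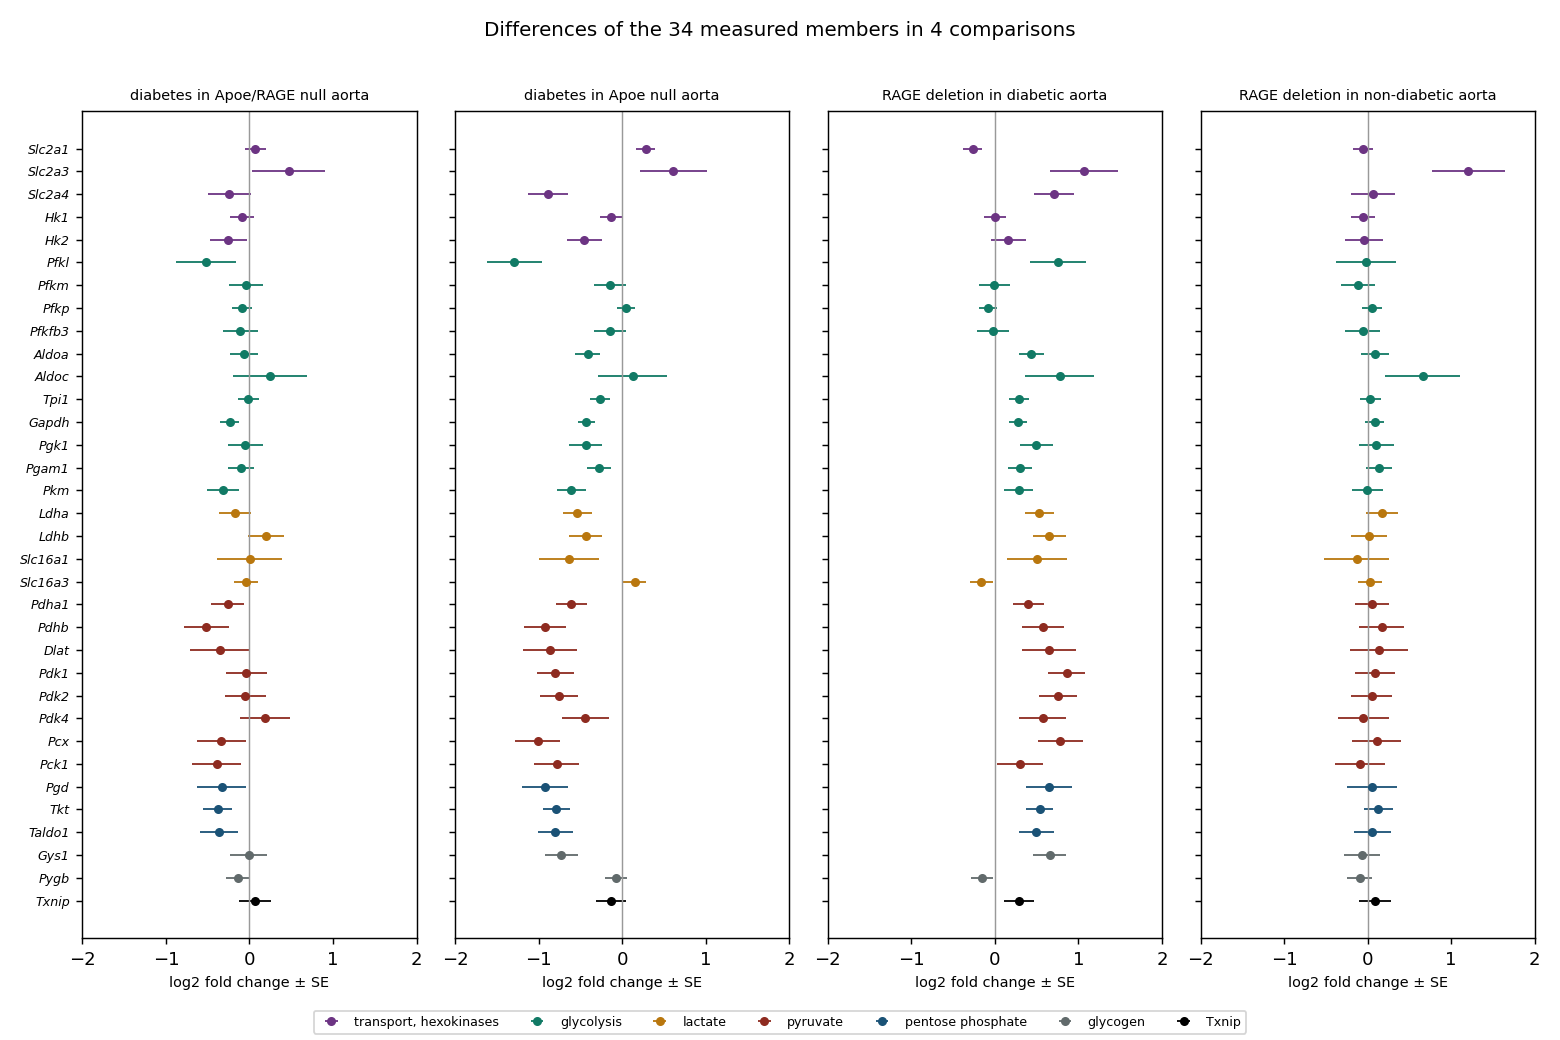
Log2 fold changes with their SE from limma (horizontal axes) of the 34 measured members, coloured by role, for diabetes in each genotype and RAGE deletion in each disease state. Values run to the left of 0 for diabetes in Apoe null aorta (median -0.45) and to the right for RAGE deletion in diabetic aorta (median 0.49), comparisons that share the diabetic Apoe null arrays.

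The diabetic Apoe null aortas differed among themselves, and so did their fat markers. Replicate 2 was the highest of its group for 25 of the 34 members, and its score over all members was -0.04, against -0.46, -0.51 and -0.35 in replicates 1, 3 and 4. The non-diabetic Apoe null scores ran from -0.10 to 0.32. Replicate 2 was also highest in its group for white adipocyte markers (0.02, against -0.63 to -0.44) and for brown adipocyte markers (0.34, against -1.09 to -0.49). Relative to non-diabetic Apoe null aortas, 8 of 8 white adipocyte markers (median -0.49), 6 of 8 brown adipocyte markers (median -0.90) and 0 of 14 skeletal muscle markers (median 1.17) had fold changes below 0.

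An adipocyte score over the white and brown adipocyte markers together served as a covariate. When it entered the fit, the median of the members was -0.12 and 7 members were lower at an unadjusted p under 0.05. With the skeletal muscle score added, the median was -0.19 and 3 members, Slc2a4, Tkt and Gys1, were lower. With the skeletal muscle score alone the median was -0.64 and 24 members were lower. Shares of all genes were not counted in any fit with tissue scores. White adipocyte scores did not overlap between these groups, with at most 0.0176 in diabetic and at least 0.0190 in non-diabetic Apoe null aortas. Brown adipocyte scores overlapped only through diabetic replicate 2. Fits with the adipocyte score therefore part it poorly from diabetes in this genotype. With both scores Pdk1 was at -0.72, no longer at an unadjusted p under 0.05, and Tkt at -0.41, while Dlat was at -0.054 and Pgk1 at -0.069. Leaving out single arrays gave 15 to 24 lower members and medians from -0.62 to -0.37, again with no share of all genes counted.

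**Figure D3:**
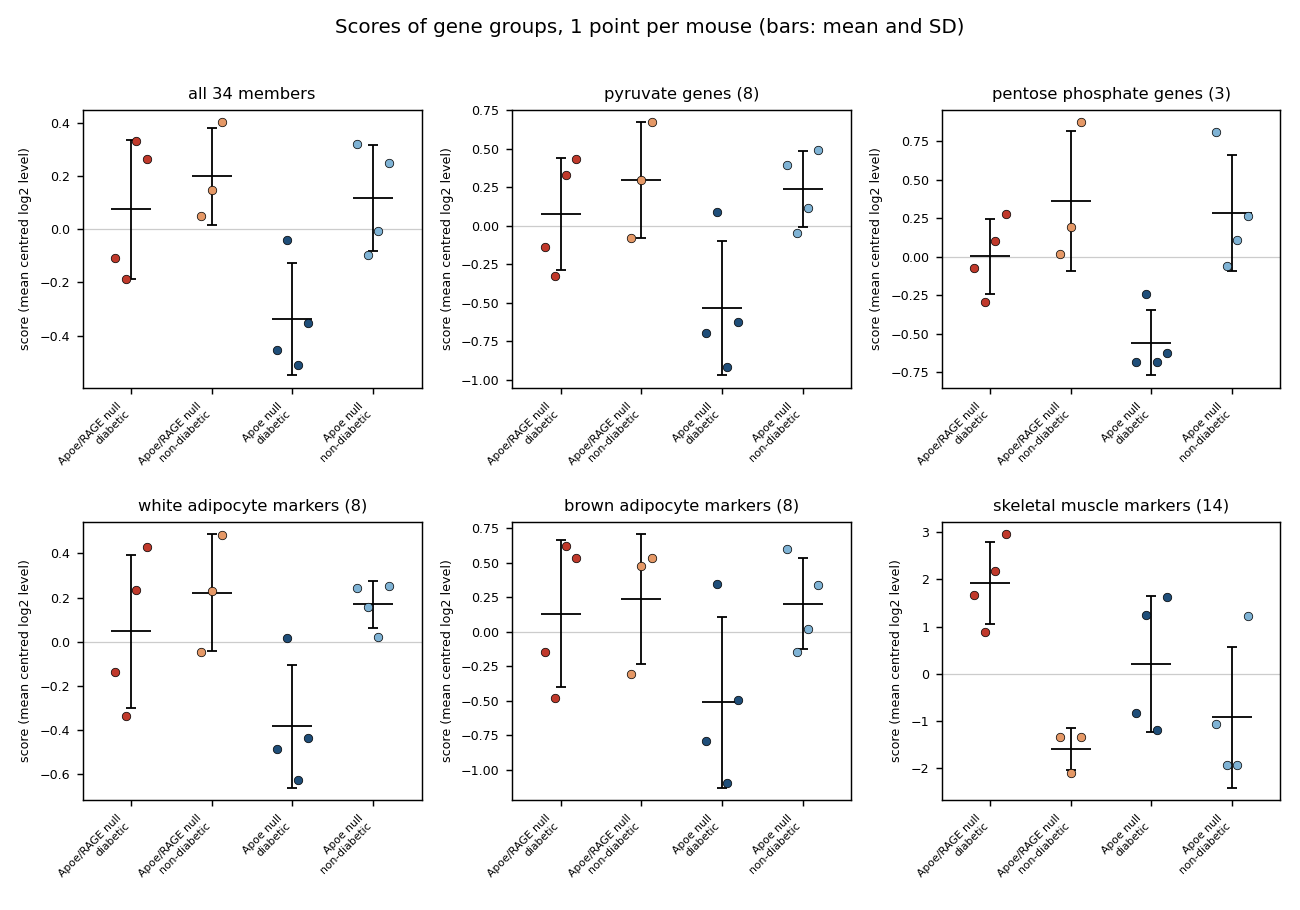
Scores (mean centred log2 level, vertical axes) of all 34 members, of the pyruvate and pentose phosphate genes and of 3 tissue marker lists, 1 point per mouse with mean and SD, in the 4 groups. The diabetic Apoe null mouse with the highest score over the members (-0.04) also has the highest white (0.02) and brown (0.34) adipocyte scores of its group.

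The second comparison asked the same of the Apoe/RAGE null aorta. Glucose metabolism genes lay mostly just below 0 there: 27 of 34 members had fold changes below 0, against 55.8% of all genes, and 7 above 0, against 44.2% of all genes. The median was -0.095, against -0.020 over all genes. Tkt was the 1 member lower at an unadjusted p under 0.05, against 3.96% of all genes, and 0 were higher, against 3.74% of all genes. In limma 0 members passed the adjusted p (smallest 0.687) or B above 0 (0.0165% of all genes), and 0 had groups that did not overlap, against 2.39% of all genes higher and 4.3% lower. Tkt read 11.70, 11.39, 11.81 and 11.99 in diabetic aortas, against 11.82, 11.93 and 12.56 in non-diabetic ones. Replicates 9, 10 and 11 lay below every non-diabetic value and replicate 12 lay among them. The fold change was -0.38 ± 0.18 (SE), and -0.20 without diabetic replicates 9 and 10.

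Pentose phosphate genes (median -0.36) and pyruvate genes (median -0.30) had the lowest medians, and the lactate genes (-0.019) and Gys1 (-0.011 ± 0.22, SE) lay near 0. Pdk1 (-0.036 ± 0.24, SE) and Pdk2 (-0.051 ± 0.24, SE) lay near 0 as well. The sign of the median rested on the diabetic replicates 9 and 10. Replicate 10 was the lowest of its group for 26 of 34 members, and replicates 9 and 10 both lay below replicates 11 and 12 for 25 of them. Without these arrays 15 members were below 0 and 19 above, and the median was 0.056. Skeletal muscle scores of the 2 groups did not overlap (0.89 to 2.96, against -2.12 to -1.34), and with that score alone in the fit the median was -0.60 and 18 members were lower, although that fit cannot part the score from diabetes in this genotype. With other single arrays left out, the 1 lower member became 5 without diabetic replicate 12, 4 without non-diabetic replicate 13, 2 without non-diabetic Apoe null replicate 5 (through the shared spread) and 0 without any 1 of replicates 1, 3, 4, 7, 8, 9, 10, 11 and 15. Shares of all genes were not counted for the fits with the muscle score or without arrays, so these counts have no background.

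The third comparison set the genotypes against each other in diabetic mice. Glucose metabolism genes read higher in the diabetic Apoe/RAGE null aortas than in the diabetic Apoe null ones: 27 of 34 members had fold changes above 0, against 49.4% of all genes, with a median of 0.49, against -0.0021 over all genes. All 8 listed pyruvate genes (median 0.61), the 3 listed pentose phosphate genes (0.54), 3 of 4 lactate genes (0.52) and 8 of 11 glycolysis genes (0.29) were above 0. At an unadjusted p under 0.05, 18 members were higher, against 6.63% of all genes, and 1, Slc2a1, was lower, against 11.3% of all genes. In limma 0 members passed an adjusted p of 0.05 (smallest 0.104) or B above 0 (0.901% of all genes), while 0.0275% of all genes passed as higher and 0.286% as lower. The groups did not overlap for 2 higher members, Gapdh and Pgd, against 1.87% of all genes, and for 0 lower ones, against 5.86%. This comparison shares the diabetic Apoe null arrays with the first, so a low reading in those arrays enters both with opposite signs.

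Pdk1, Pcx and Pdk2 had the highest fold changes among the 8 pyruvate members. Pdk1 read 6.93, 7.87, 7.56 and 7.48 in diabetic Apoe/RAGE null aortas, against 6.38, 7.04, 6.48 and 6.49 in diabetic Apoe null aortas. The groups met only where Apoe/RAGE null replicate 9 lay below Apoe null replicate 2. The fold change was 0.86 ± 0.22 (SE; limma adjusted p = 0.104), above 0 in 4 of 4 probe sets. Pdk2 read 7.92, 7.51, 8.44 and 8.45 in diabetic Apoe/RAGE null aortas, against 7.15, 7.89, 7.19 and 7.06 in diabetic Apoe null aortas (0.76 ± 0.23, SE; limma adjusted p = 0.141). Pdk4 was at 0.57 ± 0.28 (SE), with 11.16, 10.78, 11.41 and 11.31 in Apoe/RAGE null aortas overlapping the 9.80 to 11.27 of the Apoe null ones. Pdk3, of the wider list, was at -0.53 ± 0.18 (SE; limma adjusted p = 0.181), and at -0.70 without replicates 9 and 10. The complex itself was higher by 0.40 (Pdha1), 0.58 (Pdhb) and 0.64 (Dlat), and Pcx read 9.03, 8.86, 9.63 and 9.76 in Apoe/RAGE null aortas, against 8.34, 9.37, 8.05 and 8.40 in Apoe null aortas (0.78 ± 0.27, SE; limma adjusted p = 0.191).

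Tkt, at 11.70, 11.39, 11.81 and 11.99 in diabetic Apoe/RAGE null aortas, lay above the 11.08 to 11.43 of the diabetic Apoe null aortas except for replicate 10, with a fold change of 0.54 ± 0.16 (SE; limma adjusted p = 0.152). Pgd read 9.90, 9.63, 9.89 and 10.04 in Apoe/RAGE null aortas, above all of the 8.98 to 9.53 in Apoe null aortas (0.65 ± 0.28, SE; limma adjusted p = 0.285). Taldo1 read 10.04, 9.96, 10.47 and 10.66 in Apoe/RAGE null aortas, overlapping Apoe null replicate 2 (0.49 ± 0.21, SE; limma adjusted p = 0.281). The lactate dehydrogenase genes Ldha (0.53 ± 0.18, SE) and Ldhb (0.65 ± 0.20, SE) and the glycogen synthase gene Gys1 (0.65 ± 0.20, SE) had differences of like size.

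In glycolysis, Pfkl read 8.32, 8.12, 9.30 and 9.48 in diabetic Apoe/RAGE null aortas, against 7.80, 8.55, 7.90 and 7.96 in diabetic Apoe null aortas (0.75 ± 0.33, SE; limma adjusted p = 0.305). Replicates 11 and 12 lay above all Apoe null values, and replicates 9 and 10 did not. Gapdh read 11.78, 11.71, 11.91 and 12.09 in diabetic Apoe/RAGE null aortas, above all of the 11.55 to 11.68 in Apoe null aortas (0.28 ± 0.11, SE; limma adjusted p = 0.236). Tpi1 (0.29 ± 0.12, SE), Aldoa (0.43 ± 0.15, SE, 5 of 5 probe sets) and Pgk1 (0.49 ± 0.20, SE) were higher at an unadjusted p under 0.05, while Pfkm (-0.0083), Pfkp (-0.084) and Pfkfb3 (-0.022) lay near 0.

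Glucose entry again split by transporter. Slc2a4 read 8.80, 8.25, 8.82 and 9.16 in diabetic Apoe/RAGE null aortas, against 7.81, 8.65, 7.80 and 7.93 in diabetic Apoe null aortas (0.71 ± 0.24, SE; limma adjusted p = 0.186). Slc2a1 read 8.39, 8.45, 8.13 and 8.00 in Apoe/RAGE null aortas, against 8.59, 8.37, 8.38 and 8.69 in Apoe null aortas (-0.27 ± 0.11, SE; limma adjusted p = 0.289), with 3 of 3 probe sets below 0. Replicates 11 and 12 lay below every Apoe null value, and replicates 9 and 10 lay among them. Hk2 (0.16 ± 0.21, SE) and Hk1 (-0.0046 ± 0.13, SE) overlapped, and with both tissue scores in the fit Hk2 was at -0.27. Txnip read 10.65, 10.87, 11.27 and 10.93 in Apoe/RAGE null aortas, inside the 10.17 to 11.05 of the Apoe null aortas but for replicate 11 (0.29 ± 0.18, SE).

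Fat, skeletal muscle and smooth muscle markers lay mostly on 1 side of 0 in this contrast: 8 of 8 white adipocyte (median 0.32), 6 of 8 brown adipocyte (0.71) and 14 of 14 skeletal muscle markers (1.99) had fold changes above 0, while 8 of 8 smooth muscle markers (-0.38) had fold changes below 0. With adipocyte and skeletal muscle scores together in the fit, the median of the members was 0.081 and 4 members, Slc2a3, Pdk1, Pdk2 and Gys1, were higher at an unadjusted p under 0.05. With the adipocyte score alone the median was 0.093 with 5 members higher, and with the muscle score alone 0.19 with 1 higher. Pdk1 was at 0.57, 0.63 and 0.63 in these 3 fits. Without Apoe/RAGE null replicates 9 and 10 the median of the members was 0.73, with 30 above 0 and 23 higher at an unadjusted p under 0.05, and 0 passed the adjusted p. Shares of all genes were not counted for this fit or for those with tissue scores, so these counts have no background. Single genes without these arrays were at 1.34 (Pfkl), 1.12 (Pdk2), 0.92 (Pdk1), 1.16 (Pcx), 0.82 (Ldha), 0.71 (Tkt), 1.20 (Slc2a3) and -0.44 (Slc2a1), each farther from 0 than with them. The same held for Pgd (0.75), Taldo1 (0.78), Gapdh (0.41), Ldhb (0.84), Gys1 (0.93), Slc2a4 (0.94) and Pdk4 (0.77). White adipocyte scores were -0.14 and -0.34 in replicates 9 and 10, against 0.23 and 0.43 in replicates 11 and 12. Brown adipocyte scores were -0.15 and -0.48, against 0.62 and 0.53. Only replicates 11 and 12 remained in the group, and the part of fat in the shift was not tested.

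The counts depended on single arrays. Without diabetic Apoe null replicate 2, 4 members passed limma's adjusted p: Pdk1 (1.01, adjusted p = 0.0397), Pdk2 (0.95, 0.0402), Pcx (1.06, 0.0353) and Gys1 (0.81, 0.0484). The 18 members higher at an unadjusted p under 0.05 became 11 without diabetic Apoe null replicate 1, 10 without diabetic Apoe/RAGE null replicate 11 and 11 without replicate 12. How many of all genes passed either threshold was not counted for fits without single arrays, so these counts have no background.

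**Figure D4:**
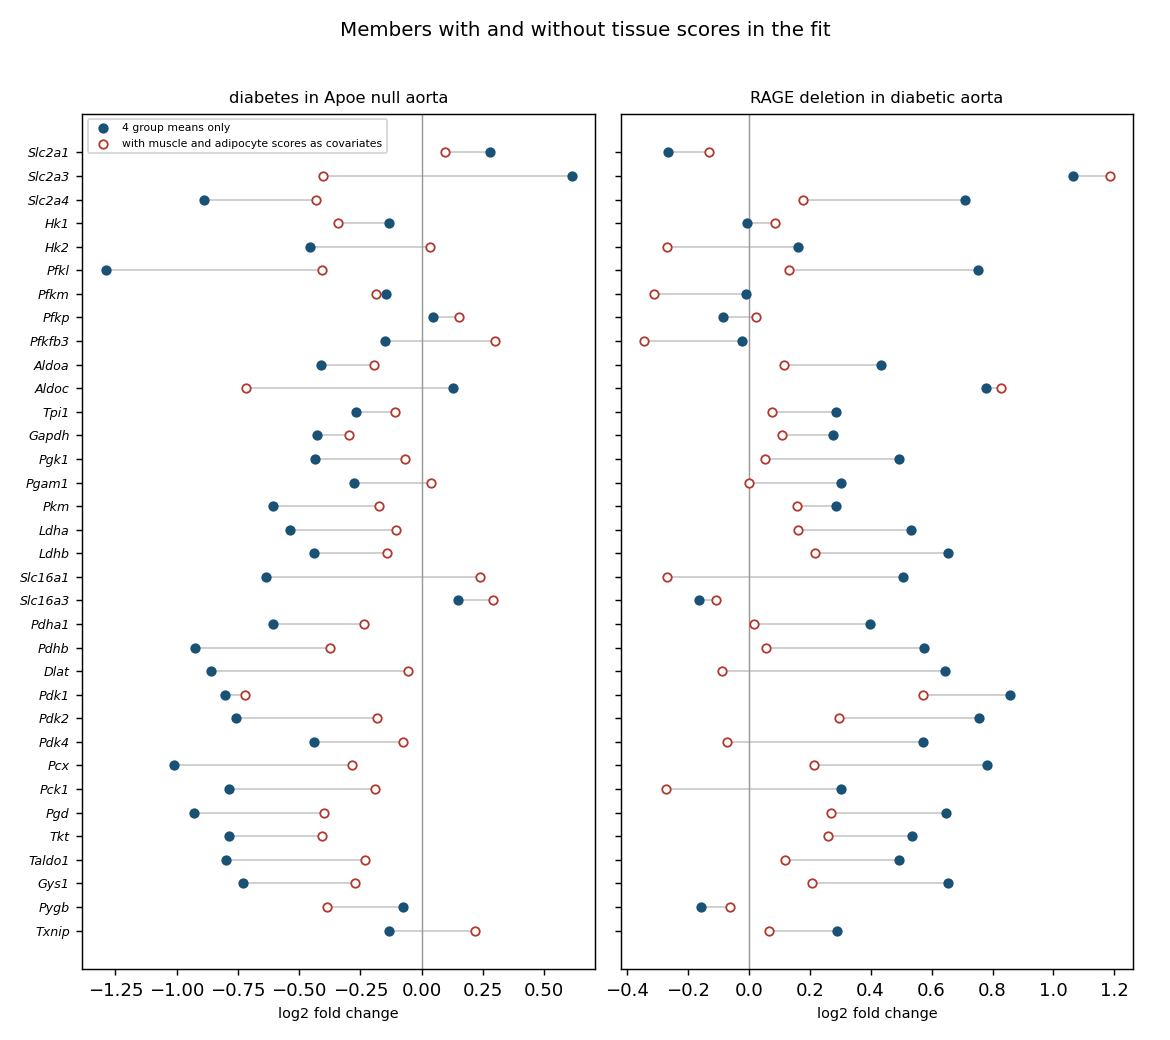
Log2 fold changes (horizontal axes) of the 34 measured members from the fit on the 4 group means (filled points) and with skeletal muscle and adipocyte scores as covariates (open points). The median is -0.45 without and -0.19 with the scores for diabetes in Apoe null aorta, and 0.49 without and 0.081 with them for RAGE deletion in diabetic aorta.

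The last comparison of groups set the genotypes against each other in non-diabetic mice. Glucose metabolism genes differed little: 22 of 34 members had fold changes above 0, against 50.6% of all genes, with a median of 0.052, against 0.0019 over all genes. Pyruvate genes had a median of 0.073, pentose phosphate genes one of 0.055 and glycolysis genes one of 0.051. Slc2a3 was the 1 member higher at an unadjusted p under 0.05, against 1.34% of all genes, and the 1 whose groups did not overlap, against 2.3% of all genes. At that p 0 were lower, against 1.28% of all genes, and 0 lay below without overlap, against 2.57% of all genes. In limma 0 members passed an adjusted p of 0.05, and the adjusted p of every member rounded to 1.00.

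Slc2a3 encodes GLUT3, the transporter of neurons and some blood cells. It read 6.18, 7.51, 7.62 and 6.63 in diabetic Apoe/RAGE null aortas, 7.61, 5.98 and 5.95 in non-diabetic Apoe/RAGE null aortas, 5.10, 5.70, 6.47 and 6.42 in diabetic Apoe null aortas and 5.06, 5.39, 5.23 and 5.56 in non-diabetic Apoe null aortas. The highest values came from diabetic Apoe/RAGE null replicates 10 and 11 and non-diabetic replicate 13. The fold change for RAGE deletion was 1.20 ± 0.44 (SE) without diabetes and 1.06 ± 0.40 (SE) with diabetes, and limma's adjusted p was 1.00 and 0.233. The probe sets differed, since the 2 that can share probes with other genes were high in these arrays, while the others stayed between 2.36 and 2.85 on all arrays. Those other probe sets were dim, below the array medians of 4.36 to 4.43. With the shareable probe sets left out, the fold change was 0.048 without diabetes and -0.080 with diabetes, read from 1 of these dim probe sets.

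Aldoc, the brain-type aldolase, singled out the same arrays, with 5.53 and 5.75 in diabetic Apoe/RAGE null replicates 10 and 11 and 5.98 in non-diabetic replicate 13, and 3.78 to 4.58 on the other arrays. Its second probe set was dim too and stayed between 2.19 and 2.58 throughout. Nerve markers, a list of 10 genes added after these values were seen, of which 8 were measured, gave scores of 1.86, 2.74 and 3.34 on these 3 arrays and from -1.19 to 0.58 on the others. Tyrosine hydroxylase (Th), which makes catecholamines in sympathetic neurons, read 7.14, 7.98 and 8.51 on the 3 arrays and 3.80 to 6.32 on the rest. Diabetic Apoe null replicate 3, with Slc2a3 at 6.47 and a nerve score of -1.11, did not follow this pattern. The part of nerve tissue in the levels of Slc2a3 and Aldoc was not tested. Without non-diabetic Apoe/RAGE null replicate 13, 0 members were higher at an unadjusted p under 0.05, and without replicate 14 there were 2. Shares of all genes were not counted for these 2 fits.

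**Figure D5:**
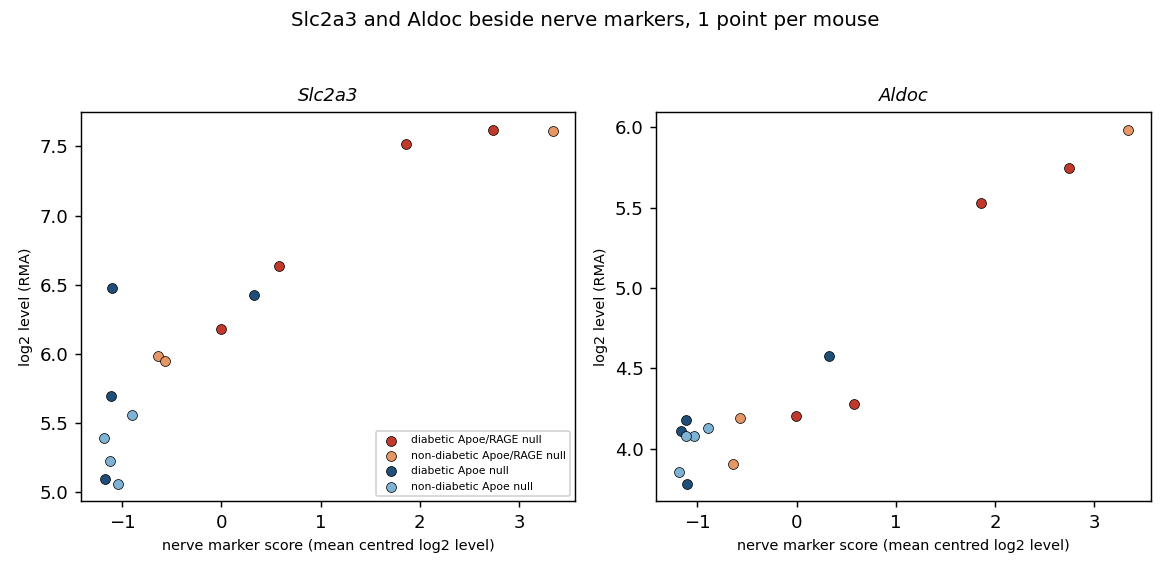
Log2 levels (RMA) of Slc2a3 and Aldoc (vertical axes) against the score of 8 nerve markers (horizontal axes), 1 point per mouse, coloured by group. The arrays with scores of 1.86, 2.74 and 3.34, which belong to 2 diabetic and 1 non-diabetic Apoe/RAGE null mice, have the highest levels of both genes.

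Whether the diabetes difference itself differed between the genotypes was tested as an interaction, the diabetes difference in Apoe/RAGE null minus that in Apoe null aortas. The members leaned above 0 (29 of 34, against 49.8% of all genes; median 0.35, against -0.0014 over all genes), since their diabetes differences were nearer 0 in the Apoe/RAGE null aortas. Ldhb (0.64 ± 0.29, SE), Pdk1 (0.77 ± 0.33, SE) and Gys1 (0.72 ± 0.30, SE) were the 3 members higher at an unadjusted p under 0.05, against 2.41% of all genes, and 0 were lower, against 6.16% of all genes. In limma 0 passed an adjusted p of 0.05 (smallest 0.675), so for no single member was the diabetes difference shown to differ between genotypes. The count of 3 moved with single arrays, to 1, 8 and 0 without diabetic Apoe null replicates 1, 2 and 3, to 0 and 0 without non-diabetic Apoe null replicates 5 and 8, to 6, 0 and 1 without diabetic Apoe/RAGE null replicates 10, 11 and 12, and to 0 and 9 without non-diabetic Apoe/RAGE null replicates 13 and 15. Without diabetic Apoe/RAGE null replicates 9 and 10 together it was 16, the median was 0.58, and Ldhb, Pdk1 and Gys1 were at 0.82, 0.83 and 1.00. The 2.41% of all genes belongs to the fit on all arrays, and no such share was counted for the other fits. With both tissue scores in the fit the median was 0.014, with 1 member higher.

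A wider list of 58 genes of the same routes, 53 of them measured, was summarised in the same way. For diabetes in Apoe null aorta 37 of 53 were below 0 (median -0.13), against 50.2% of all genes. At an unadjusted p under 0.05, 13 were lower, against 5.95% of all genes, and 4 were higher, against 7.26%, a share near that of all genes, and 0 passed limma's adjusted p. The groups did not overlap for 4 lower genes, against 3.11% of all genes, and for 1 higher gene, against 4.52%. Pygl, the liver-type glycogen phosphorylase, read 8.47, 9.28, 8.05 and 8.42 in diabetic aortas, against 10.52, 9.53, 9.89 and 10.21 in non-diabetic aortas, without overlap (-1.48 ± 0.31, SE; limma adjusted p = 0.260). Gpd1, the glycerol phosphate dehydrogenase that links glycolysis to fat synthesis, was at -1.36 ± 0.31 (SE; limma adjusted p = 0.284) without overlap. H6pd, the glucose 6-phosphate dehydrogenase of the endoplasmic reticulum, was at -0.39 ± 0.10 (SE; limma adjusted p = 0.294).

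For RAGE deletion in diabetes, 32 of these 53 genes were above 0 (median 0.087), against 49.4% of all genes. At an unadjusted p under 0.05, 8 were higher, against 6.63% of all genes, and 6 were lower, against 11.3%, a share near that of all genes, and 0 passed limma's adjusted p. The groups did not overlap for 1 higher gene, against 1.87% of all genes, and for 3 lower genes, against 5.86%. Both shares were near those of all genes. Without replicates 9 and 10, 34 were above 0 (median 0.17), with 16 higher and 4 lower. Shares of all genes were not counted without these arrays. H6pd came nearest, at 9.00, 9.02, 8.95 and 9.08 in diabetic Apoe/RAGE null aortas, above all of the 8.51, 8.77, 8.44 and 8.49 in diabetic Apoe null aortas (0.46 ± 0.10, SE; limma adjusted p = 0.0688; 0.46 without replicates 9 and 10). Pygl was at 1.15 ± 0.31 (SE; limma adjusted p = 0.116), and the transporter gene Slc2a10 at -0.69 ± 0.20 (SE; limma adjusted p = 0.125), lower in every diabetic Apoe/RAGE null aorta than in any diabetic Apoe null one. Without diabetic Apoe/RAGE null replicates 9 and 10 Pygl was at 1.48 and Slc2a10 at -0.69. For diabetes in Apoe/RAGE null aortas 2 of the 53 were lower and 0 higher at an unadjusted p under 0.05, Slc16a7, a monocarboxylate transporter gene (-0.42 ± 0.18, SE), and the mitochondrial pyruvate carrier gene Mpc1 (-0.60 ± 0.27, SE), against 3.96% and 3.74% of all genes. Next came Mlx, which encodes a partner of the glucose-responsive factor ChREBP (-0.17 ± 0.083, SE). Without replicates 9 and 10 these 3 genes were at -0.36, -0.21 and -0.12, and 1 of the 53 was lower and 2 were higher. For RAGE deletion without diabetes 1 was lower, the bisphosphoglycerate mutase gene Bpgm (-0.50 ± 0.21, SE), and 0 were higher, against 1.28% and 1.34% of all genes. Next came the glycogenin gene Gyg (-0.21 ± 0.11, SE) and the fructose bisphosphatase gene Fbp1 (0.30 ± 0.17, SE). In the interaction, H6pd was at 0.51 ± 0.15 (SE), Pdk3 at -0.74 ± 0.26 (SE) and Mlx at -0.29 ± 0.11 (SE), with a limma adjusted p of 0.675 for each, and at 0.51, -0.90 and -0.24 without replicates 9 and 10.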

How the data were processed

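Expression was measured in 15 mouse aortas on Affymetrix arrays, 1 per mouse. The deposited values are on the log2 scale, 1 per probe set, and the submitters' processing notes name RMA without a version. The series description says that arrays were normalized by combination of genotype and disease; whether that means 1 run or several is not given in the sources used here, and differences between groups may hold differences between runs. The values were used as the authors left them. Arrays give no read depth, and their number limits the precision.

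Of 45101 probe sets, 51 control probe sets with no gene were left out and 45050 were tested; 13 control probe sets that the annotation gives a mouse gene were kept, which sets the probe set of Gapdh and Pcx. The platform annotation, which can hold old symbols, pairs 34958 probe sets with 1 gene, 932 with several and 9160 with none. The limma package (version 3.58.1, R 4.3.3) fitted a mean for each of the groups to all arrays at once and moderated the variances. Adjusted p-values follow Benjamini-Hochberg across the probe sets tested, with a threshold of 0.05. The members and lists were chosen with earlier results of these data known. The fit was tested on simulated data. Intervals are at 95%. Plots used matplotlib 3.10.9 (Python 3.11.15).

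Values of every array are given for members with an adjusted p under 0.05, or an unadjusted p under 0.05 and groups that do not overlap, in a comparison, and for Slc2a1, Slc2a4, Hk2, Pfkfb3, Gapdh, Ldha, Pdk4 and Txnip whatever their values; other genes of the pathway are named by the 3 smallest p of each of the 4 comparisons of groups. Outside this rule, Aldoc, the nerve markers, Pdk3, Pdhx, Dld, Rpe, Pgls, Rpia and the interaction values of the wider list were chosen after their values were seen. Alternatives were B above 0, the compared groups alone, quantile normalization, median centring, a filter on dim probe sets, weights for each array, 1 probe set per gene, a variance prior with trend and robust fitting, the mean of a gene's probe sets, shareable probe sets left out, tissue scores as covariates, each array left out, and diabetic Apoe/RAGE null replicates 9 and 10 left out. The adipocyte or skeletal muscle score alone and all control probe sets left out were added after the data were seen.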

Additional observations from a re-analysis of the deposited data

Results flagged for a closer look

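Among 102 groups of 4 arrays (34 members in 3 groups), 5 held 1 value far from the other 3, against the 5% that chance gives. In diabetic Apoe null replicate 2, Slc2a4 read 8.65, against 7.80 to 7.93 in the other 3 mice of its group, Pdk2 read 7.89, against 7.06 to 7.19, and Taldo1 read 10.2, against 9.62 to 9.69. In diabetic Apoe/RAGE null replicate 11, Pfkfb3 read 8.42, against 7.99 to 8.04. In non-diabetic Apoe null replicate 8, Pfkm read 9.30, against 8.61 to 8.64, and the cardiac muscle score of that array was 3.66, against -1.81 to -0.46 in its group.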

How the results depend on the processing

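No paired analysis was possible because the replicate numbers run from 1 to 15 and pair no mice. Of 925 alternative values of 32 single-gene results, 922 kept their sign and 3 passed the adjusted threshold. Outside these 32 results others turned too, among them Slc2a3 for diabetes in Apoe null aorta and Hk2 for RAGE deletion in diabetic aorta with both tissue scores (-0.40 and -0.27). Within the 32, the 3 that turned were Hk2 for diabetes in Apoe null aorta (0.036 with both tissue scores, 0.049 with the adipocyte score) and Slc2a3 for RAGE deletion in diabetic aorta (-0.080 without shareable probe sets). That Slc2a3 value comes from a different and dim probe set, with a mean of 2.63 over all arrays. For diabetes in Apoe null aorta, B above 0 took 1 member where the adjusted p took 0; the members lower at an unadjusted p under 0.05 (21) were 3 with both tissue scores and 7 with the adipocyte score, and the median (-0.45) was -0.19 and -0.12. Without single arrays these were 15 to 24 and -0.62 to -0.37. For diabetes in Apoe/RAGE null aorta the 1 lower member became 0 with the compared groups alone, without dimmer probe sets, with array weights, with 1 probe set per gene, with both tissue scores and without replicates 9 and 10, 2 with median centring, 3 with the mean of a gene's probe sets, 3 with the adipocyte score and 18 with the muscle score (median -0.60); single arrays left out gave 0 to 5 (medians -0.21 to -0.034). For RAGE deletion in diabetic aorta the 18 higher members became 4 with both tissue scores, 5 with the adipocyte score and 1 with the muscle score (medians 0.081, 0.093 and 0.19); single arrays left out gave 10 to 22 higher and 0 to 4 past the adjusted p (medians 0.37 to 0.62). Without diabetes the 1 higher member became 0 without shareable probe sets and 0 to 2 without single arrays (medians -0.10 to 0.17). For the interaction the 3 higher members became 0 with the mean of a gene's probe sets, 1 with both tissue scores, 1 with the adipocyte score, 0 with the muscle score and 16 without replicates 9 and 10, with medians of 0.014, 0.068 and 0.026 under the 3 tissue fits; single arrays left out gave 0 to 9 (medians 0.24 to 0.49). The cause of these moves was not tested, and shares of all genes were not counted in these alternative fits. Aldoa had no value without shareable probe sets, Gapdh none without control probe sets, and the compared groups alone give no interaction.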

Other observations

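Outside the listed rule, and chosen after its values were seen, Arrdc4, a relative of Txnip that is also known to respond to glucose, read 6.53, 6.38, 5.87 and 5.60 in diabetic Apoe null aortas, against 5.29, 5.29, 5.28 and 5.53 in non-diabetic Apoe null aortas. Every diabetic value was higher, with a fold change of 0.75 ± 0.26 (SE; limma adjusted p = 0.360). Of the 53 measured genes of the wider list, 1 was higher without overlap in this comparison, against 4.52% of all genes. In diabetic Apoe/RAGE null aortas it read 5.44, 6.50, 6.17 and 5.15, against 5.34, 5.20 and 5.41 in non-diabetic Apoe/RAGE null aortas. Txnip itself gave a mean difference of -0.13 in the Apoe null aortas, and its highest diabetic arrays, replicates 1 and 2, were also those in which Arrdc4 read highest. The diabetic Apoe/RAGE null aortas did not show this match. Arrdc4 was highest there in replicate 10, whose Txnip level (10.87) lay below those of replicates 11 (11.27) and 12 (10.93).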
